A study of Mus musculus with 6 samples.

Results

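Secreted or effector outputs of activated macrophages were followed, namely the cytokine genes Tnf, Il6, Il10, Il12b, Il23a, Il27 and Ebi3 and the enzyme gene Nos2. They were chosen by gene symbol, and all 8 were found, once each, among the 55401 genes of the table, which lists mouse mRNA levels from total RNA freed of ribosomal RNA. The fucoidan group (L-OHP+FUC, 3 libraries) was bone-marrow-derived macrophages (BMDM) given fucoidan, a sulfated polysaccharide found in brown seaweeds, at 250 µg/ml for 12 h and then L-OHP at 5 µM for 12 h. Its control (L-OHP, 3 libraries) received L-OHP at the same dose for 12 h without fucoidan. L-OHP is the usual abbreviation of oxaliplatin, a platinum chemotherapy drug, and every library carries it, so that the comparison asks what fucoidan pretreatment did in drug-exposed cells. The cells were grown for 7 days from marrow of mouse tibia and femur in medium holding L929-conditioned medium, a source of the growth factor CSF1. The strain, sex and age of the mice, and whether replicates came from separate mice or cultures, are not stated in the sources used here. The p-values therefore rest on the scatter among these 6 libraries, which may be technical.

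TNF is a cytokine cleaved from the macrophage surface that acts through the receptors TNFR1 and TNFR2. IL-6 signals through IL-6R and gp130, and IL-10 restrains macrophage activation through its own receptor. The IL-12 family is built of paired chains. The p40 chain encoded by Il12b joins p35 (Il12a) to make IL-12 or p19 (Il23a) to make IL-23, and the chain encoded by Ebi3 joins p28 (Il27) to make IL-27. Nos2 encodes the inducible synthase that makes nitric oxide from arginine. In macrophages most of these genes are silent or low at rest and are switched on by microbial products and cytokines through NF-kB, AP-1, C/EBP and IRF factors.

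RefSeq (GRCm38.p6, the assembly of mm10) gave promoter sequences for Tnf, Il6, Il12b and Ebi3. They are shown because the promoter set used here held entries for these 4 genes and none for Il10, Il23a, Il27 and Nos2. Each is the 250 bases before the RefSeq start, 5′ to 3′ on the strand of the gene, at chr17:35202008-35202257 (minus strand) for Tnf, chr5:30012864-30013113 (plus) for Il6, chr11:44399813-44400062 (plus) for Il12b and chr17:55952373-55952622 (plus) for Ebi3. Capitals mark matches, on either strand and including overlapping ones, to GGG, any 5 bases and CC (NF-kB), TTNNGNAA (C/EBP), TGANTCA (AP-1), TGACGT (the core of a cyclic AMP response element), GAAA, any 2 bases and GAAA (IRF) or TATAAA.
Tnf: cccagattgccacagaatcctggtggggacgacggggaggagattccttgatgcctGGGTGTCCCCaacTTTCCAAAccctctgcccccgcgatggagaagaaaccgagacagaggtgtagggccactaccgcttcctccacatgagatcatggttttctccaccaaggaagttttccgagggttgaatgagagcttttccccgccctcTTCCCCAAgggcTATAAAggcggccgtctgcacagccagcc
Il6: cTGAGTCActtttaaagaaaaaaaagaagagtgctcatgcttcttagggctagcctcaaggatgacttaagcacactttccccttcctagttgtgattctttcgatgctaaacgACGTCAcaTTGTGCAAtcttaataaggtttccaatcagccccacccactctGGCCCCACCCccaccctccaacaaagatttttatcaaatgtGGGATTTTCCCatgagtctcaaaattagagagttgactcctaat
Il12b: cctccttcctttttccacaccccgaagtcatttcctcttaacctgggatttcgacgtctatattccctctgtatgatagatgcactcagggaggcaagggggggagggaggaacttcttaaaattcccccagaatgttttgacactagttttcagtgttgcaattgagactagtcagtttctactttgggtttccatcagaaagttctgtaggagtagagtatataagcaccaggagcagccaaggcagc
Ebi3: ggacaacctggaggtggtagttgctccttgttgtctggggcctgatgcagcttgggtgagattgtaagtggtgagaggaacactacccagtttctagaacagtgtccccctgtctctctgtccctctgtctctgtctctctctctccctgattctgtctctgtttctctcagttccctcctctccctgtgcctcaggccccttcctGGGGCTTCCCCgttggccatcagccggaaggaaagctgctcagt
The NF-kB pattern was in the windows of Tnf, Il6 and Ebi3, and in 45.8% of 32851 promoters of the same length. In Il6 it lies 44 to 35 bases before the start as GGGATTTTCC, and in Ebi3 at the same distance as GGGGCTTCCC. The C/EBP pattern was in the windows of Tnf and Il6 and in 36.8% of all promoters. The AP-1 pattern (6.75% of all promoters) and the TGACGT core (6.47%) were in that of Il6, TATAAA (12.4%) was in that of Tnf, and the IRF pattern (2.98%) was in none of the 4. None of the 6 patterns was in the Il12b window, which says only that these letters are not there.

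Values were FPKM, fragment counts scaled by the authors for transcript length and library depth. Steps between low values, taken as 1 fragment each, implied 15.6 to 18.4 M fragments in the L-OHP+FUC libraries and 16.4 to 18.6 M in the L-OHP libraries (M, mega), and a multiple of these depths would give the same steps. Mitochondrial transcripts held 8.84% to 9.44% of the summed FPKM with fucoidan and 5.99% to 9.36% without. Groups were compared with limma on log2(FPKM + 1), and a gene was called at a Benjamini-Hochberg adjusted p under 0.05 over the 12084 genes that reached 0.5 FPKM in 3 or more of the 6 libraries. Of these, L-OHP+FUC had 927 (7.67%) called as higher and 2335 (19.3%) as lower, 27.0% in all, so that 28.4% of calls were higher. That split depended on scaling, since 48.5% of calls were higher after median ratio rescaling, 53.5% after quantile normalization and 49.2% after a correction for GC content and length. Over the tested genes, the median log2 fold change was -0.10, and it moved to 0.03 under quantile normalization and to 0.01 under that correction. The 8 macrophage markers were abundant in every library and summed to 13570 to 14560 FPKM with fucoidan and 12600 to 17950 FPKM without. Lyz2 held most of each sum, at 10590 to 11660 FPKM with fucoidan and 10000 to 15180 FPKM without. Among them Csf1r was called higher (log2 fold change 0.47, limma adjusted p = 0.0233) and Mertk and Fcgr1 lower (-0.74 and -0.69, adjusted p = 0.00432 and 0.0268). Mertk kept the call in every leave-out of 1 library. Csf1r lost it without L-OHP+FUC replicate 1 or 2 or L-OHP replicate 1 (adjusted p = 0.0832 to 0.0854). Fcgr1 lost it without any L-OHP+FUC library or L-OHP replicate 1 (adjusted p = 0.0602 to 0.0932). The 10 neutrophil markers summed to 5.70 to 6.56 FPKM with fucoidan and 3.79 to 4.26 FPKM without, and Ly6g, Retnlg and Cxcr2 were listed at 0 throughout. S100a8 held most of each sum, at 3.72 to 4.71 FPKM with fucoidan and 2.41 to 2.89 FPKM without. S100a9, not tested and named after its values were seen, averaged 0.352 FPKM with fucoidan and 0.309 FPKM without, and its groups overlapped. The 7 dendritic cell markers summed to 0.134 to 0.298 FPKM with fucoidan and 0.249 to 0.440 FPKM without, with Flt3 listed at 0 and none of the 7 tested. The 8 T and NK cell markers summed to 20.2 to 30.8 FPKM with fucoidan and 30.0 to 52.9 FPKM without, nearly all of it Il7r and Cd4, and Cd3e and Cd3g were listed at 0. The 5 B cell markers summed to 0.629 to 1.27 FPKM with fucoidan and 1.22 to 1.42 FPKM without. The 6 mast cell and basophil markers reached 0.518 FPKM with fucoidan and 0.450 FPKM without, with Tpsb2, Fcer1a and Mcpt4 listed at 0, and the 5 stromal markers summed to 4.49 to 5.10 FPKM with fucoidan and 2.67 to 6.79 FPKM without. The calls among these other lists, named after their values were seen, were S100a8 as higher (log2 fold change 0.54, limma adjusted p = 0.0162) and Cd4 and Cd79b as lower (-0.84 and -0.51, adjusted p = 0.0111 and 0.0258). Cd4 kept the call in every leave-out. S100a8 lost it without L-OHP+FUC replicate 2 or L-OHP replicate 1 (adjusted p = 0.0589 to 0.0651). Cd79b lost it without L-OHP+FUC replicate 2 or 3 or L-OHP replicate 1 or 3 (adjusted p = 0.0603 to 0.0888). Cd79b passed the filter only through its L-OHP libraries, and its partner Cd79a, not tested, averaged 0.581 FPKM with fucoidan and 0.354 FPKM without. The part of any such cells in the results below was not tested.

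With fucoidan before the drug, macrophages had more Tnf mRNA and more Ebi3 mRNA, and their Il12b mRNA was 12.2-fold lower as a ratio of group means. Il6 was 3.61-fold higher by the same ratio but did not pass the test. Il10, Il27 and Nos2 did not pass either, and Il23a was at or near 0 in all libraries, as its values below show. Of the 7 genes that could be tested, 2 were called higher (28.6%, against 7.67% of all genes) and 1 lower (14.3%, against 19.3%). Groups did not overlap for 3 of the 7 as higher and 2 as lower, where 16.1% of all tested genes were higher and 30.9% lower without overlap, 47.0% in all. Il6 passed the filter on low values only through its L-OHP+FUC libraries and Il12b only through its L-OHP libraries, so each was tested only because one group was high. The members were also chosen with earlier results of these data known. For both reasons the counts are given as a description. In bulk RNA, fewer cells that make a transcript and less of it per cell cannot be told apart.

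**Figure D1:**
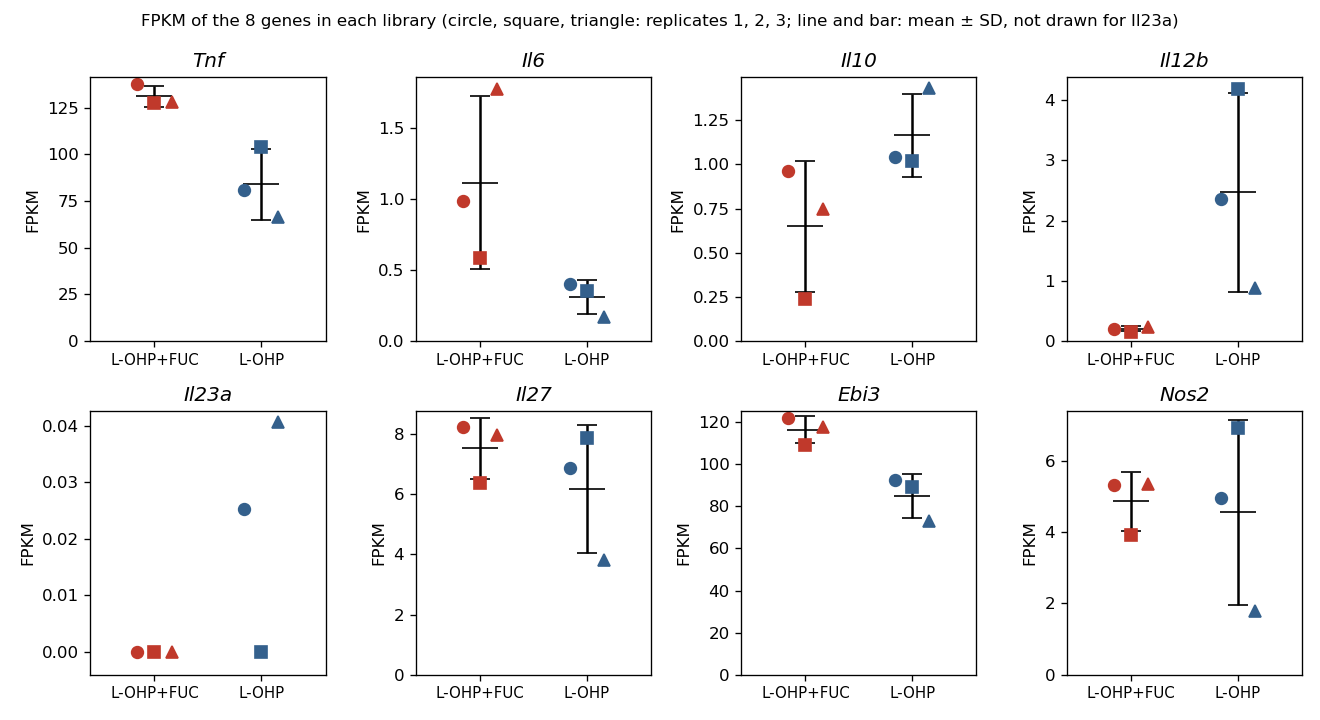
FPKM (linear axes, 1 panel per gene) of the 8 genes in the 3 L-OHP+FUC libraries (red, left) and the 3 L-OHP libraries (blue, right), with the mean and SD of each group except for Il23a. The L-OHP+FUC points of Tnf, Il6 and Ebi3 all lie above the L-OHP points, those of Il10 and Il12b all lie below them, and those of Il27 and Nos2 overlap them.

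Tnf (ENSMUSG00000024401, chromosome 17, 35199381 to 35202007 of mm10, minus strand) encodes the cytokine TNF. FPKM of 138, 128 and 128 with fucoidan (replicates 1 to 3 of L-OHP+FUC) stood beside 80.9, 104 and 66.7 with L-OHP alone. Every fucoidan library was above every L-OHP library, and the L-OHP libraries were the more scattered. The means were 131 ± 5.72 FPKM with fucoidan and 83.9 ± 18.9 FPKM without (SD, n = 3 each), a ratio of 1.56, and the log2 fold change was 0.66 (SE 0.16, limma adjusted p = 0.0270). In the authors' deposited table its q-value was 0.000833, but the table does not mark Tnf as significant, and 22.9% of the genes tested here had a q-value under 0.05 there, 9.93% as higher. The call was lost without L-OHP replicate 1 or without any of the 3 L-OHP+FUC libraries (adjusted p = 0.0592 to 0.0914). It was also lost with no filter (adjusted p = 0.0664) and with the GC and length correction and the replicate number as a block together (adjusted p = 0.0643). The log2 fold change stayed between 0.51 and 0.83 over all 16 alternative settings.

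Around Tnf, the genes that neighbour it in the same cluster did not share its level. Lta, which encodes lymphotoxin alpha, was listed at 0.235, 0.0655 and 0.310 FPKM with fucoidan and 0.158, 0.113 and 0.132 FPKM without, and Ltb at 0.202 to 0.456 FPKM with fucoidan and 0.200 to 0.420 FPKM without. Both were under the filter and overlapped between the groups. Of the related ligand Tnfsf9 (4-1BB ligand), which activates T cells, the mean was 3.85 ± 0.872 FPKM with fucoidan and 2.00 ± 0.271 FPKM without (SD, n = 3 each; log2 fold change 0.68, limma adjusted p = 0.0221). Tnfsf9 and Osm, described below, were the calls, both as higher, among 3 tested of the 17 partners and related cytokines. Over all tested genes, 7.67% were called higher and 19.3% lower. Il11, Il20, Il22 and Il24 were listed at 0 throughout. The call of Tnfsf9 was lost without L-OHP+FUC replicate 1 or 3 or L-OHP replicate 1 or 3 (adjusted p = 0.0572 to 0.0727).

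The receptor of TNF that carries a death domain, Tnfrsf1a, had FPKM of 94.1, 92.4 and 80.1 with fucoidan and of 66.1, 71.9 and 59.1 with L-OHP alone. It rose by a log2 fold change of 0.43 (limma adjusted p = 0.0314), a call lost without L-OHP+FUC replicate 1 or 2 or L-OHP replicate 1 or 3 (adjusted p = 0.0730 to 0.112). Tnfrsf1b, the receptor that prefers membrane-bound TNF, was the most abundant of the receptors listed, at 421 ± 15.0 FPKM with fucoidan and 332 ± 44.1 FPKM without (SD, n = 3 each; log2 fold change 0.35, limma adjusted p = 0.0726, no call). None of the 4 tested genes that process TNF passed (median log2 fold change -0.10). Adam17, the sheddase of TNF, had a log2 fold change of -0.03 and its partner Rhbdf2 one of -0.18 (limma adjusted p = 0.932 and 0.575). Over the 12 receptor genes listed here and below, 9 were tested, 1 was called higher, 1 lower and 7 did not pass, and over all genes 7.67% were higher and 19.3% lower. Of the 16 tested genes of receptor signalling and its inhibitors, 2 were called higher, 1 lower and 13 did not pass (median log2 fold change -0.09). Below the receptor, Tnip1, a partner of the NF-kB inhibitor A20, rose (log2 fold change 0.51, limma adjusted p = 0.0187), and Ripk1, a kinase of the TNF receptor complex, fell (-0.45, adjusted p = 0.0145). For Ripk1 the change was -0.18 after the GC and length correction, without a call (adjusted p = 0.149). Tnip1 and Ripk1 each lost the call without L-OHP+FUC replicate 1 or 2 or L-OHP replicate 1 (adjusted p = 0.0524 to 0.0701).

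Il6 (ENSMUSG00000025746, chromosome 5, 30013114 to 30019981, plus strand) was low in every library. With fucoidan the 3 libraries had 0.983, 0.583 and 1.77 FPKM, and with L-OHP alone they had 0.400, 0.353 and 0.173 FPKM. The lowest fucoidan library was above the highest L-OHP library, and the fucoidan libraries differed among themselves more than the groups' nearest values did. From the implied depth and the longest transcript, these levels stand for about 21.3 to 67.7 fragments with fucoidan and 6.6 to 15.4 without, too few for a precise level. Its log2 fold change was 0.66 (SE 0.21, 95% interval 0.17 to 1.15, limma adjusted p = 0.0560), just outside the threshold. It passed in 6 of 15 alternative settings, among them a pseudocount of 0.1 (log2 fold change 1.496, adjusted p = 0.0474) and the GC and length correction (0.95, adjusted p = 0.0172). In the authors' deposited table its q-value was 0.00277, and it was marked as significant there.

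Of the receptor chains for IL-6, Il6ra had FPKM of 3.61, 4.59 and 4.06 with fucoidan and of 6.59, 5.85 and 7.55 with L-OHP alone. It fell (log2 fold change -0.59, SE 0.12, limma adjusted p = 0.0166), although the change was -0.35 after the GC and length correction (adjusted p = 0.0563) and the call was lost without L-OHP+FUC replicate 1 or L-OHP replicate 1 (adjusted p = 0.0549 to 0.0601). Il6st, which encodes gp130, had a log2 fold change of -0.02 (limma adjusted p = 0.932). Osm, which encodes oncostatin M, a cytokine that also uses gp130, had 3.29, 2.22 and 2.54 FPKM with fucoidan and 1.12, 1.68 and 1.71 FPKM without. It rose (log2 fold change 0.55, limma adjusted p = 0.0380), but lost the call in all leave-outs except that of L-OHP replicate 2 (adjusted p = 0.0586 to 0.112) and after the GC and length correction (adjusted p = 0.0645). Clcf1, another cytokine of the gp130 group, had a log2 fold change of 0.01 (limma adjusted p = 0.955).

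Socs3, which encodes the inhibitor that IL-6 and IL-10 receptors induce through STAT3 and that blocks gp130, had the largest log2 fold change among the pathway genes that were tested, on the log2(FPKM + 1) scale. With fucoidan the 3 libraries had 6.09, 4.40 and 5.07 FPKM, and with L-OHP alone they had 1.453, 2.18 and 1.38 FPKM. The groups were far apart, and the log2 fold change was 1.21 (SE 0.16, limma adjusted p = 0.00575), a call kept in every leave-out (adjusted p at most 0.0277). Stat3 itself had a log2 fold change of -0.17 (limma adjusted p = 0.392), and Jak1 one of -0.02 (adjusted p = 0.884).

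**Figure D2:**
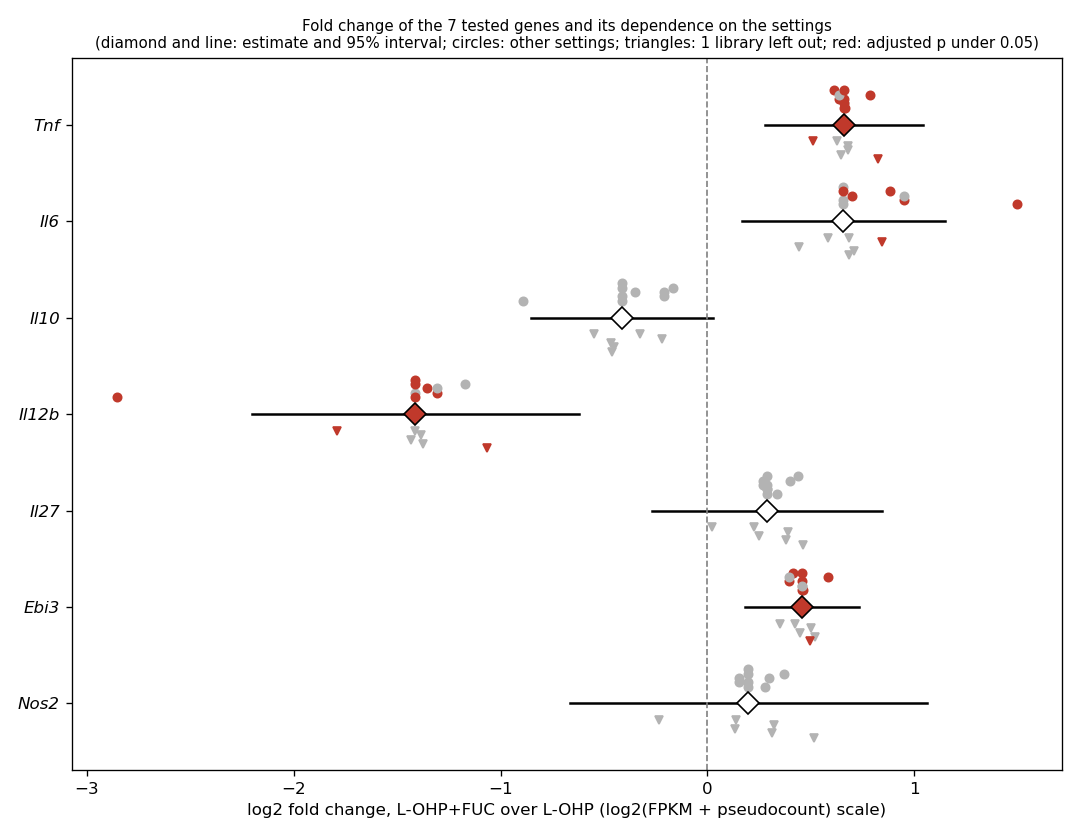
Log2 fold change (x axis, L-OHP+FUC over L-OHP, with a pseudocount of 1 unless that was the setting changed) of the 7 tested genes, as the estimate with its 95% interval (diamond and line), under other settings (circles) and with 1 library left out (triangles), red where the adjusted p was under 0.05. Tnf, Il6 and Ebi3 stay to the right of 0 and Il10 and Il12b to the left in all settings, while the interval of Nos2 runs from -0.67 to 1.06.

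Il12b (ENSMUSG00000004296, chromosome 11, 44400063 to 44414033, plus strand) encodes the p40 chain shared by IL-12 and IL-23. Its FPKM were 0.207, 0.159 and 0.242 with fucoidan (L-OHP+FUC replicates 1 to 3) and 2.35, 4.18 and 0.885 with L-OHP alone (replicates 1 to 3). All 3 fucoidan libraries were low and close together, and the L-OHP libraries were higher but spread widely. The levels stand for about 4.8 to 7.7 fragments with fucoidan and 28.2 to 151 without. The log2 fold change was -1.41 (SE 0.33, limma adjusted p = 0.0246). Adding 1 to FPKM this low makes that an understatement. With a pseudocount of 0.1 it was -2.86 (SE 0.52, adjusted p = 0.0135), and in the authors' deposited table the log2 ratio was -3.61 with a q-value of 1.86e-07 and a mark as significant, where 12.9% of the genes tested here passed 0.05 as lower. The log2 fold change was -1.79 without L-OHP replicate 3, the lowest of its group, and -1.06 without replicate 2, the highest, and both fits kept the call (adjusted p = 0.0105 and 0.0279). The call was lost without any of the 3 L-OHP+FUC libraries or without L-OHP replicate 1 (adjusted p = 0.0556 to 0.0776) and came to adjusted p = 0.05001 under quantile normalization, just past the threshold. It was also lost with no filter (adjusted p = 0.0712) and with the GC and length correction and the replicate number as a block together (adjusted p = 0.0609). Dendritic cells are another source of p40, and their 7 markers, whose sums are given above, were each at 0.255 FPKM or less in every library. Among those named after their values were seen, Clec9a averaged 0.0311 FPKM with fucoidan and 0.171 FPKM without, whereas Xcr1 averaged 0.111 FPKM with fucoidan and 0.0784 FPKM without. The part of such cells in the fall of Il12b was not tested.

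The partners of p40 were both scarce. Il12a, which encodes p35, was listed at 0.308, 0.627 and 0.144 FPKM with fucoidan and 0.154, 0.0314 and 0.107 FPKM without, so that the groups overlapped and the gene was under the filter. At levels so low, no ratio of Il12b to Il12a is given. Il23a (ENSMUSG00000025383, chromosome 10, 128296139 to 128298752, minus strand), which encodes p19, was at 0 with fucoidan in all 3 libraries and in L-OHP replicate 2, and at 0.0253 and 0.0406 FPKM in L-OHP replicates 1 and 3. Those values stand for about 1 fragment each, so no fold is given. It was under the filter and entered no test except with no filter, where it was not called (limma adjusted p = 0.361).

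Of the receptors of IL-12, Il12rb1, the chain that binds p40, had FPKM of 1.35, 0.7 and 1.02 with fucoidan and of 2.47, 2.99 and 1.12 with L-OHP alone. This was a log2 fold change of -0.62 (SE 0.25, limma adjusted p = 0.107), and one of -0.79 with a call after the GC and length correction (adjusted p = 0.0456). Il12rb2 had a log2 fold change of -0.12 (limma adjusted p = 0.554). Il23r was at 0.216 FPKM or less in every library, and Stat4, which transmits IL-12 signals in lymphocytes, at 0.178 FPKM or less.

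Ebi3 (ENSMUSG00000003206, chromosome 17, 55952640 to 55957022, plus strand) was expressed at nearly the level of Tnf. FPKM of 122, 109 and 118 with fucoidan (replicates 1 to 3 of L-OHP+FUC) stood beside 92.5, 89.4 and 72.9 with L-OHP alone. The groups did not overlap, and L-OHP replicate 3 was the lowest of all libraries. Its log2 fold change was 0.46 (SE 0.12, limma adjusted p = 0.03002), with a q-value of 0.00601 in the authors' deposited table, which does not mark Ebi3 as significant. It was called in 8 of 16 alternative settings, and leaving out any library other than L-OHP replicate 2 ended the call (adjusted p = 0.0531 to 0.102). Gm16712 overlaps Ebi3 on the opposite strand, and it had 1.18 to 1.70 FPKM with fucoidan and 1.52 to 3.22 FPKM without.

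Il27 (ENSMUSG00000044701, chromosome 7, 126589010 to 126594941, minus strand), the p28 partner of the Ebi3 chain, had FPKM of 8.24, 6.36 and 7.96 with fucoidan and of 6.88, 7.86 and 3.80 with L-OHP alone. The groups overlapped, and the log2 fold change was 0.29 (95% interval -0.27 to 0.84, limma adjusted p = 0.387). Apobr overlaps the end of Il27 on the opposite strand at 30.6 to 44.5 FPKM with fucoidan and 31.2 to 35.6 FPKM without, and whether counting used strand is not given in the sources used here. Per kilobase, Ebi3 exceeded Il27 by 14.8 to 17.2 times with fucoidan and by 11.4 to 19.2 times without (two-sided exact permutation test, p = 0.8, where 3 against 3 allows no less than 0.1). The receptor chain Il27ra had a log2 fold change of -0.07 (limma adjusted p = 0.613).

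Il10 (ENSMUSG00000016529, chromosome 1, 131019845 to 131024974, plus strand) had FPKM of 0.961, 0.240 and 0.748 with fucoidan (replicates 1 to 3) and of 1.04, 1.02 and 1.43 with L-OHP alone. The fucoidan libraries were all below the L-OHP libraries, but the highest of them came close. The levels stand for about 4.9 to 23.2 fragments with fucoidan and 22.4 to 30.8 without. The log2 fold change was -0.41 (SE 0.19, 95% interval -0.85 to 0.03, limma adjusted p = 0.140), and no alternative setting gave a call (adjusted p = 0.108 to 0.528). It was -0.22 without L-OHP+FUC replicate 2, the lowest library, -0.21 after the GC and length correction and -0.17 under quantile normalization. Its receptor chains were well expressed, with log2 fold changes of -0.15 for Il10ra and 0.36 for Il10rb (limma adjusted p = 0.441 and 0.231).

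Among genes that IL-10 induces in macrophages, 9 were tested, of which 3 were called higher, 1 lower and 5 did not pass, beside 7.67% higher and 19.3% lower over all genes, with a median log2 fold change of 0.35 beside -0.10 for all tested genes. Beside Socs3, the transcriptional repressor Nfil3 stood at 8.69 ± 0.296 FPKM with fucoidan and 5.08 ± 0.682 FPKM without (SD, n = 3 each; log2 fold change 0.68, limma adjusted p = 0.00907), a call kept in every leave-out (adjusted p at most 0.0416). The third was the IL-4 receptor chain Il4ra (log2 fold change 0.38, limma adjusted p = 0.0353), named after its values were seen, which lost its call in all leave-outs except that of L-OHP replicate 2 (adjusted p = 0.0524 to 0.115). The repressor Etv3 fell (-0.43, adjusted p = 0.0295), without a call after the GC and length correction (-0.23, adjusted p = 0.148) or without any of the L-OHP+FUC libraries or L-OHP replicate 1 (adjusted p = 0.0577 to 0.1).

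Nos2 (ENSMUSG00000020826, chromosome 11, 78920787 to 78960254, plus strand) had FPKM of 5.33, 3.91 and 5.36 with fucoidan (replicates 1 to 3) and of 4.96, 6.91 and 1.79 with L-OHP alone. The fucoidan libraries lay inside the range of the L-OHP libraries. The log2 fold change was 0.20 (95% interval -0.67 to 1.06, limma adjusted p = 0.713), and it turned to -0.24 without L-OHP replicate 3.

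Some genes that supply or use arginine rose with fucoidan. Of 11 tested genes of the nitric oxide and arginine list, 3 were called higher, 1 lower and 7 did not pass, where 7.67% of all tested genes were higher and 19.3% lower (median log2 fold change 0.21, beside -0.10 for all tested genes). Ass1, which rebuilds arginine from citrulline, stood at 62.7, 55.0 and 66.5 FPKM with fucoidan and 42.7, 34.4 and 36.2 FPKM without. It rose (log2 fold change 0.69, SE 0.12, limma adjusted p = 0.0107) and kept the call in every leave-out (adjusted p at most 0.0446). The arginine transporter Slc7a1 (log2 fold change 0.41, limma adjusted p = 0.0264) and the mitochondrial arginase Arg2 (0.81, adjusted p = 0.0328) rose too. Slc7a1 lost its call in all leave-outs except that of L-OHP replicate 2, and Arg2 without any L-OHP+FUC library or L-OHP replicate 1 (adjusted p = 0.0520 to 0.107 over both). Gch1, the first enzyme of synthesis of the cofactor tetrahydrobiopterin, did not pass (log2 fold change 0.45, limma adjusted p = 0.0636). Pts, the next enzyme of that pathway, named after its values were seen, fell (-0.45, adjusted p = 0.0420), but its change was -0.13 after the GC and length correction (adjusted p = 0.331), and the call was lost in 4 leave-outs (adjusted p = 0.109 to 0.135). Arg1, the cytosolic arginase, was at 0.514 FPKM or less in every library and was not tested.

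**Figure D3:**
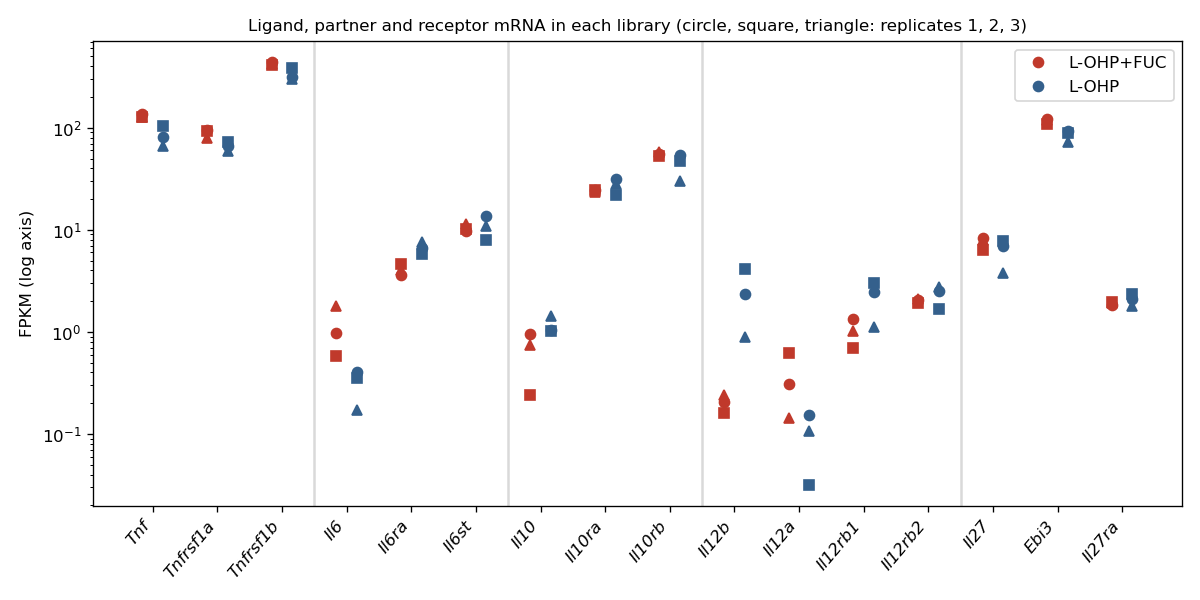
FPKM (log axis) of the cytokine genes, their partner chains and their receptor chains in each library, L-OHP+FUC in red to the left and L-OHP in blue to the right for each gene. Tnfrsf1b, Tnf and Ebi3 stand at the top, and Il12b lies at 0.159 to 0.242 FPKM in the L-OHP+FUC libraries and at 0.885 to 4.18 FPKM in the L-OHP libraries.

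Of 22 transcription factors and cofactors listed as acting at these cytokine genes, all tested, 4 were called higher, 1 lower and 17 did not pass, beside 7.67% higher and 19.3% lower over all genes, the median log2 fold change being 0.17. The lineage factor Spi1 (PU.1) stood at 209 ± 17.6 FPKM with fucoidan and 136 ± 22.2 FPKM without (SD, n = 3 each; log2 fold change 0.62, limma adjusted p = 0.0205). Prdm1, which encodes the repressor BLIMP1, rose (log2 fold change 0.46, adjusted p = 0.0155). Both lost the call without L-OHP+FUC replicate 1 or 2 or L-OHP replicate 1 (adjusted p = 0.0530 to 0.0758). The other calls as higher, named after their values were seen, were Nfkbiz, a nuclear cofactor needed for Il6 and Il12b induction in mouse macrophages (log2 fold change 0.71, limma adjusted p = 0.0215), and the NF-kB subunit Rela (0.49, adjusted p = 0.0397). After the GC and length correction Rela was at 0.31 without a call (adjusted p = 0.0680). Nfkbiz lost its call without any L-OHP+FUC library or L-OHP replicate 1, and Rela in all leave-outs except that of L-OHP replicate 2 (adjusted p = 0.0513 to 0.132 over both).

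Maf, which encodes c-Maf, an activator of Il10 and a repressor of Il12b in mouse macrophages, fell. Its FPKM were 11.1, 11.4 and 12.4 with fucoidan (L-OHP+FUC replicates 1 to 3) and 18.5, 27.6 and 19.8 with L-OHP alone (replicates 1 to 3). The groups were well apart (log2 fold change -0.84, SE 0.15, limma adjusted p = 0.0122). Every leave-out kept the call, though without L-OHP+FUC replicate 2 only just (adjusted p = 0.0496). The IRF factors that act at Il12b did not pass, with log2 fold changes of -0.19 for Irf1 and -0.39 for Irf8 (limma adjusted p = 0.490 and 0.140). Over all 7 pathway lists, 72 distinct genes were tested, of which 14 were called higher (19.4%, against 7.67% of all genes) and 5 lower (6.94%, against 19.3%). The lists were chosen with earlier results of these data known, so these shares are a description only. The higher count was 21 after median ratio rescaling, where 1581 of all 12084 tested genes were higher. It was 3 without L-OHP+FUC replicate 1 and 3 without L-OHP replicate 1, where 307 and 373 of all tested genes were higher.

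**Figure D4:**
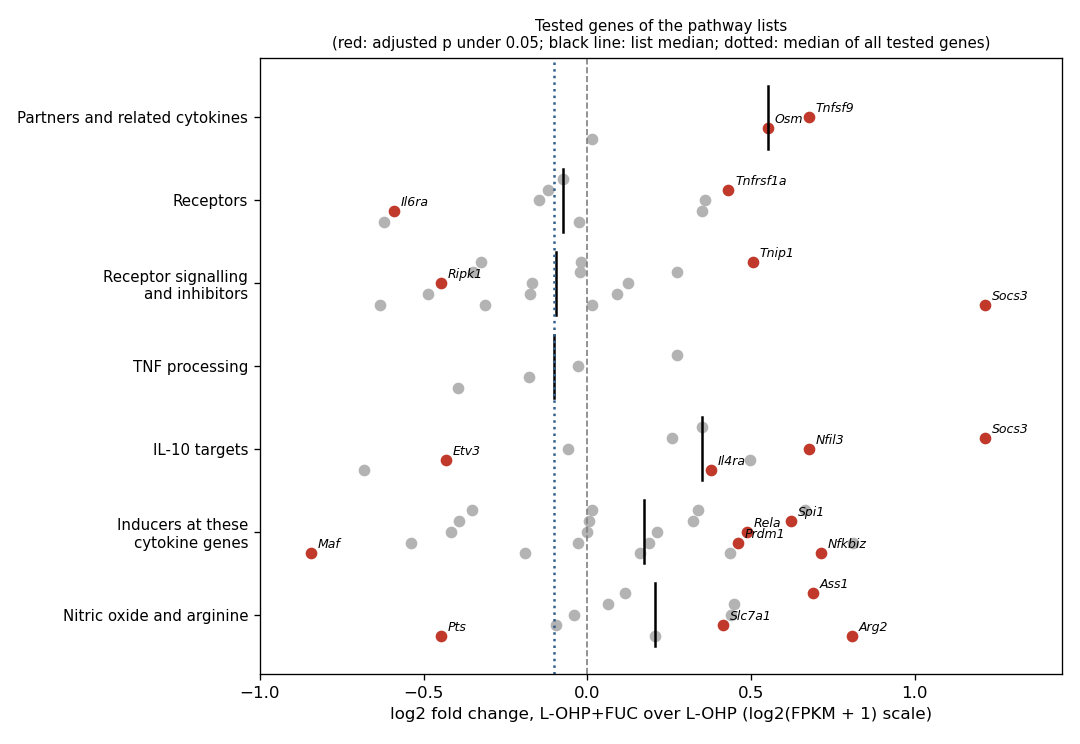
Log2 fold change (x axis, L-OHP+FUC over L-OHP) of the tested genes of the 7 pathway lists, red and named where the adjusted p was under 0.05, with each list's median (black) and the median of all tested genes (dotted, -0.10). Socs3, which stands in both the signalling and the IL-10 target lists, is the farthest to the right at 1.21, and Maf the farthest to the left among the called genes at -0.84.

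By mean FPKM over the 6 libraries, Tnf was number 366 and Ebi3 number 404 of the 12084 tested genes, far above the other members. Il27 was number 4877, Nos2 6098, Il12b 9826, Il10 10699 and Il6 11202. The place of Il12b above Il10 and Il6 rests on the L-OHP libraries, since with fucoidan its mean was 0.203 FPKM, beside 0.650 FPKM for Il10 and 1.11 FPKM for Il6. Tnf exceeded Ebi3 by 1.09 to 1.17 times in the L-OHP+FUC libraries, while the ratio was 0.875 to 1.16 in the L-OHP libraries, so that they were not separated there. Il27 was 1.48 to 1.62 times Nos2 with fucoidan and 1.14 to 2.13 times without, above it in every library.

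Some libraries were low in their group for most of these genes. Among the 7 tested members, L-OHP+FUC replicate 2 was the lowest of its group for all 7, and L-OHP replicate 3 the lowest of its group for 6, the exception being Il10, for which it was the highest. How often these libraries were the lowest over all tested genes was not counted, so this cannot be read as particular to the members. L-OHP replicate 2 was the highest of its group for Tnf, Il12b, Il27 and Nos2. The deviations of L-OHP replicate 3 from the group mean, on the log2(FPKM + 1) scale, were -0.30 for Tnf, -0.76 for Il12b, -0.53 for Il27 and -0.87 for Nos2. Those of L-OHP+FUC replicate 2 ran from -0.39 for Il10 to -0.04 for Tnf. Mitochondrial transcripts held 9.36% of the summed FPKM in L-OHP replicate 3 and 5.99% in replicate 2, and implied depth was lowest, at 15.6 M fragments, in L-OHP+FUC replicate 2, and the part of either in these levels was not tested. Without L-OHP replicate 3, the log2 fold change of Il27 was 0.02.

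**Figure D5:**
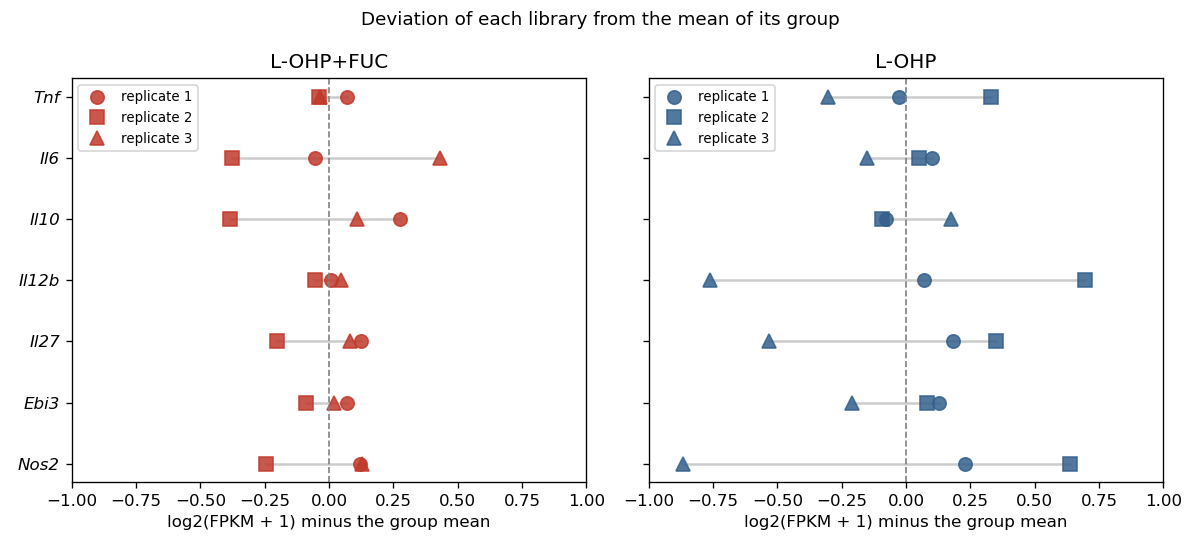
Deviation of each library from its group mean (x axis, log2(FPKM + 1) units) for the 7 tested genes, L-OHP+FUC left and L-OHP right, with circles, squares and triangles for replicates 1, 2 and 3. The squares lie lowest for every gene in the L-OHP+FUC panel, and the triangles lie lowest for all genes but Il10 in the L-OHP panel.

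Genes whose pattern over the 6 libraries was most like a member's were sought among 5913 or 5914 tested genes with a mean of at least 5 FPKM, by Pearson's r of log2(FPKM + 1). For Tnf they were Gpr84 (r = 0.9999) and Mars1 (0.998), and for Ebi3 Mydgf (0.996), Eef1akmt4 (0.987) and Sla (0.985). For Il27 they were Klf16 (0.999), Srp54c (0.987) and Ndufa12-ps (0.977), for Nos2 Ndufs8 (0.992), Spn (0.986) and Dnajb1 (0.986), and for Il10 Chkb (0.948), Ncoa4-ps (0.946) and Patl1 (0.944). For Il12b they were Agrn (0.998), Pik3r5 (0.997) and Acin1 (0.996), and for Il6 Plek (0.989), Gm6377 (0.987) and Rnf14 (0.981). These values are a description over 6 points that share the 2 groups and the libraries' own deviations.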

How the data were processed

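Reads were processed by the authors, and the submitters' processing notes name bcl2fastq 2.0, HISAT2, StringTie, DESeq2, limma and mm10 without their roles. How fragments were counted, and whether by strand, is unknown here. Per the file headers the authors' values are FPKM for each gene and library. Values of 0.0001 stood where others are 0 and were taken as 0. The fold column deposited by the authors equals the ratio of mean FPKM of L-OHP+FUC to L-OHP within 0.1% in all 55401 rows, the log2 column deposited by the authors is its log2, and the p-value and q-value columns were deposited by the authors with no tool stated. FPKM hold no counts, so counting intervals are not given. Implied depth came from low values of genes with 1 transcript of at least 400 bases, of which 37.3% to 42.1% were whole within 0.03 fragments, too few to recover counts.

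Libraries were grouped by their titles. The comparison used limma 3.58.1 in R 4.3.3 on log2 of FPKM plus 1, with no covariate, an intensity trend and two-sided tests adjusted over all 12084 genes. Exact permutation tests used scipy 1.17.1. Coordinates, GC content and lengths came from GENCODE M21 (GRCm38), matched by gene ID for 99.5% of rows. The GC and length correction subtracted a loess trend (span 0.3, 4 iterations) from each library. No pair of libraries shared more than 13 identical values. The code was tested on simulated data. The members, lists and settings were chosen with earlier results of these data known. Named are all members, the 3 smallest p of each list, receptor and partner chains, Arg1 and Gch1, the 3 most alike genes of each member (1 of them is not reported here), and other genes of the lists where the text says so or gives their values as context.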

Additional observations from a re-analysis of the deposited data

How the results depend on the processing

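The directions of Tnf, Il6, Ebi3 and Il27 (higher) and of Il10 and Il12b (lower) were the same in every setting run, and Nos2 turned to -0.24 without L-OHP replicate 3 and reached 0.52 without replicate 2. Calls varied more. Tnf was called in 10 of 16 settings, Ebi3 in 8 of 16, Il12b in 8 of 15 and Il6 in 6 of 15. In limma the unadjusted p of Tnf, Ebi3 and Il12b was under 0.05 in every setting that tested them (at most 0.0192, 0.0235 and 0.0142). These fits reuse the same 6 libraries and are not independent support for the calls. Il12b also passed the filter only through its L-OHP libraries. The number of the 8 genes called higher was 2. It was 3, with Il6 added, with a pseudocount of 0.1, after median ratio rescaling and after quantile normalization. It was also 3 after the GC and length correction and with protein-coding genes only. It was 0 without a filter, 1 with the replicate number as a block, and 0 with block and GC and length correction together. The leave-outs gave 0 to 2. The number called lower was 1, and it was 0 without a filter, 0 at a mean of at least 5 FPKM, where Il12b is not tested, 0 under quantile normalization, 0 with block and correction together, and 0 to 1 in the leave-outs. Over all genes, 927 were higher, and 561 without a filter, 1581 after median ratio rescaling, 1565 after quantile normalization, 554 with the block and 266 to 1121 in the leave-outs. There were 2335 lower, and 1520 without a filter, 966 at a mean of at least 5 FPKM, 1359 after quantile normalization, 1437 after GC and length correction, 800 with block and correction together and 835 to 2256 in the leave-outs. In the pathway lists 14 were higher, and 6 without a filter, 9 with the block, 6 with block and correction together and 3 to 22 in the leave-outs. There were 5 lower, and 3 without a filter, after median ratio rescaling or after the correction, 1 with block and correction together, and 1 to 8 in the leave-outs. Leave-outs test fewer samples, and for the other settings the cause was not tested. Libraries with the same replicate number did not deviate together (r = -0.04, -0.07 and 0.08 across genes), and not every library correlated best with its own number, so the block (Tnf adjusted p = 0.0466, Il12b 0.0403, Ebi3 0.0586) is an alternative only. Mean FPKM was lowest for Il6, Il10, Il12b and Il23a, and the part of depth in their results was not tested.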
